A study of Xenopus laevis with 27 samples.

Results

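Tail tissue of the frog *Xenopus laevis* taken 6 hours after amputation (6 hpa) was compared, across all genes, with tail tissue taken at 0 minutes (0 mpa). The comparison used 6 libraries, A, B and C at each time, of the 27 libraries in a bulk RNA-seq series that follows tail regeneration over 9 times from 0 mpa to 7 days (7 dpa). Every sample carries the treatment amputated, those at 0 mpa included, and each pooled RNA from 20 embryos of a regenerative stage. The labels used here name no genotype, stage number, sex or clutch for any group. The p-values below therefore measure a spread between libraries that may be partly technical. That spread was estimated over all 27 libraries, not over the 6 compared alone.

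The tail of a *Xenopus* tadpole regrows spinal cord, notochord, muscle and skin after it is cut. In the first hours the epidermis migrates over the stump, immediate early transcription factors are induced, and leukocytes enter the wound. Proteases that remodel the matrix are also made in this period, whereas the proliferating bud forms later. *X. laevis* is allotetraploid, and many genes are present as a copy of the L subgenome (.L) and a copy of the S subgenome (.S). The files count these copies separately.

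At 6 hpa, 741 genes had risen and 73 had fallen against 0 mpa, of 22268 tested and 29776 in the count table. A gene was called when edgeR's quasi-likelihood test gave a Benjamini-Hochberg adjusted p under 0.05 over all genes tested. The share called was 3.33% in the higher direction and 0.328% in the lower direction. The median log2 fold change was 2.09 among the genes that rose and -1.59 among those that fell, against -0.02 over all genes tested, and 400 of the rises but 18 of the falls were at least 4-fold. At an unadjusted p under 0.05 there were 3014 genes. The levels at the 2 times did not overlap for 803 of the 814 called genes, and for 5082 of all genes tested.

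Total counts were 4356539, 4739923 and 5114908 in 0 mpa A, B and C, and 6019871, 4479125 and 1207557 in 6 hpa A, B and C, so library 6 hpa C was the shallowest of the 6. Thinned to the depth of that library, the 0 mpa libraries held 20037 to 21155 genes with a read, 6 hpa A and B held 22288 and 21052, and 6 hpa C held 19371. Its 10 most abundant genes took 20.9% of its reads, against 13.9% and 13.7% in 6 hpa A and B and 17.1% to 22.8% at 0 mpa. Among the 741 genes that rose, 6 hpa C was the highest of the 3 libraries for 458, and it was the highest for 7327 of all genes tested. Its part in these results was measured by leaving it out of the fit over the whole series, which gave 516 genes higher and 27 lower. With only the 0 mpa and 6 hpa libraries fitted, leaving it out moved the counts the other way. They were 786 higher and 162 lower with it, and 895 and 248 without it. Whether its omission removed or added calls thus depended on the other libraries in the fit. In the fit over the whole series, leaving out 0 mpa A gave 458 and 36, and leaving out 0 mpa B gave 440 and 30. Without 6 hpa B the counts were 620 and 33. In all 6 fits over the series that each left out 1 library, 336 of the rises and 13 of the falls were called. The genes given in most detail below are among these unless a lost call is stated. With relative log expression scaling in place of TMM, the median log2 change of all genes moved by -0.145 and the split was 625 higher to 151 lower, or 80.5% higher against 91% with TMM.

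**Figure D1:**
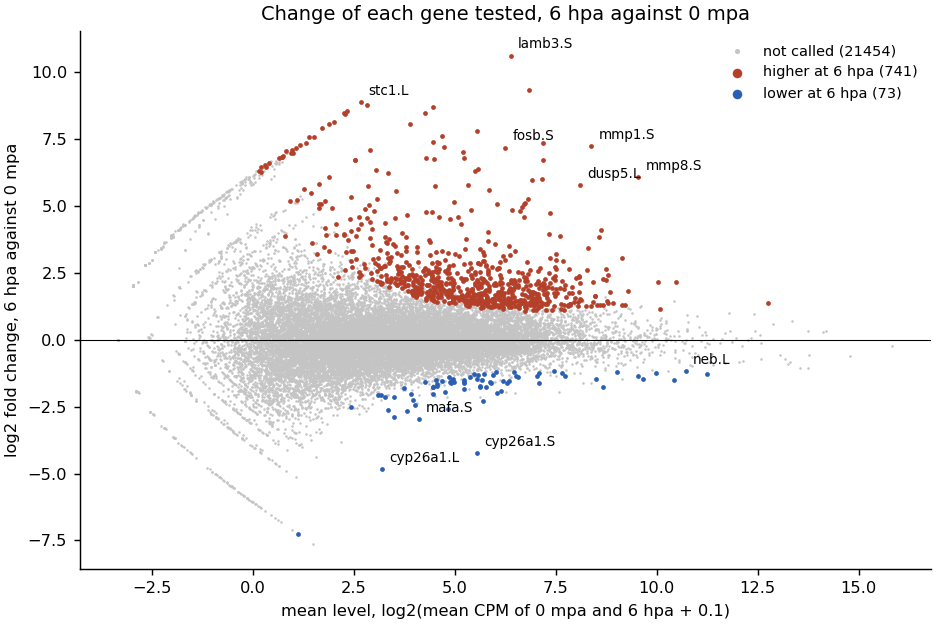
Log2 fold change of each gene tested at 6 hpa against 0 mpa (vertical axis), against the gene's mean level at the 2 times on a log2 CPM scale (horizontal axis), with the 741 genes that rose in red and the 73 that fell in blue. The curved line of points at the upper left holds genes with no read at 0 mpa, whose fitted change depends on the prior count.

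**Figure D2:**
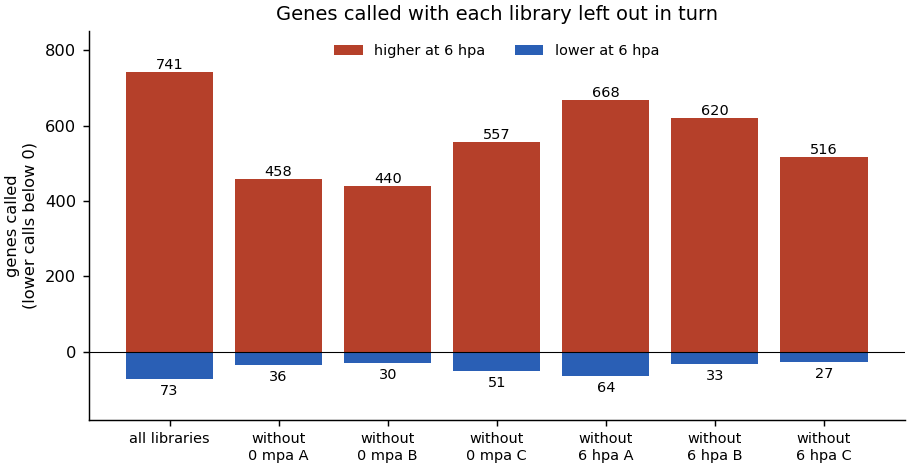
Number of genes called higher (above 0) and lower (below 0) at 6 hpa with all libraries and with each of the 6 libraries left out in turn. Higher calls ranged from 440 to 668 and lower calls from 27 to 64 when 1 library was left out.

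Genes of the epidermis and its attachment rose, and the largest rise was in a chain of laminin-332, the basement membrane laminin that anchors basal epidermal cells. Of 40 tested genes for epidermal anchorage, 15 rose and 0 fell, or 37.5% higher beside 3.33% over all genes. The list median log2 change was 0.90 against -0.02 over all genes. lamb3.S, which encodes the beta chain, was at 0, 0.252 and 0 counts per 1000000 scaled reads (CPM) in 0 mpa A, B and C, and at 177, 135 and 189 CPM in 6 hpa A, B and C. It thus went from 1 read over the 0 mpa libraries to a similar level in all 3 libraries at 6 hpa. The ratio of pooled reads was 2060, with an exact 95% interval of 369 to 81300 that covers counting error only. The adjusted p was 3.97e-13, and the fitted log2 change of 10.62 was 12.58 without 0 mpa B. lama3.L, for the alpha chain, was already present at 8.89, 13.4 and 22.4 CPM and reached 171, 112 and 114 CPM. The groups did not overlap for either gene, and the log2 change of lama3.L was 3.15 ± 0.49 (SE, adjusted p = 1.72e-05).

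itga5.L, the alpha subunit of a fibronectin receptor, rose from 61.8, 57.0 and 63.0 CPM to 222, 238 and 252 CPM. This was a log2 change of 1.97 ± 0.34 (SE, adjusted p = 5.1e-05), with little spread within either time. The other anchorage genes that rose include itgb4.L, the beta subunit of the laminin-binding hemidesmosome integrin, with a log2 change of 1.31 ± 0.32 (SE, adjusted p = 0.00813). Its call was lost without 0 mpa B (adjusted p = 0.101) and without 6 hpa C (adjusted p = 0.077). The anchorage list is sensitive to single libraries: in place of 15, 8 members were called when 0 mpa A, 0 mpa C or 6 hpa C was omitted and 5 when 0 mpa B was, and 4 members were called in all 6 such fits. The summed level of the 40 genes was 4114 to 4766 CPM at 0 mpa and 7661 to 9935 CPM at 6 hpa.

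Of 81 tested genes for keratins, cell junctions and epidermal regulators, 23 rose and 0 fell, or 28.4% higher beside 3.33% over all genes. The median log2 change was 0.64. Without 0 mpa B the count was 15, and 14 members were called in all 6 leave-one-out fits. Claudins, the strand proteins of tight junctions, had the largest changes. cldn6.1.S was at 0.481, 2.02 and 1.73 CPM at 0 mpa and at 81.1, 48.0 and 109 CPM at 6 hpa, a log2 change of 5.77 ± 0.60 (SE, adjusted p = 5.26e-10). Its other copy, cldn6.1.L, changed by 4.59 ± 0.77 (SE, adjusted p = 9.45e-05; 5.47 without 0 mpa C and 3.84 without 6 hpa C), and cldn6.2.S by 2.69 ± 0.48 (SE, adjusted p = 7.97e-05). All 3 claudin genes had every 6 hpa library above every 0 mpa library. cgn.L, for the junction protein cingulin, rose from 27.2, 25.7 and 61.5 CPM to 120, 112 and 226 CPM. tp63.S, the transcription factor of basal epidermal cells, rose from 90.6, 68.8 and 95.4 CPM to 247, 237 and 377 CPM. These are log2 changes of 1.98 ± 0.36 (SE, adjusted p = 0.000108) and 1.75 ± 0.35 (SE, adjusted p = 0.000444). The cell surface mucin gene muc1.S rose too, from 21.6 to 27.9 CPM at 0 mpa to 244 to 548 CPM at 6 hpa (log2 change 3.90 ± 0.45 SE, adjusted p = 4.91e-09).

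Proteases that cut collagen and gelatin rose, and so did the inhibitor gene timp-1.L. Of 59 tested matrix proteases and inhibitors, 17 rose and 1 fell. These are shares of 28.8% and 1.69%, beside 3.33% and 0.328% over all genes. The median log2 change was 1.05, and 12 of the rises were called in all 6 leave-one-out fits. The summed level of the list was 1548 to 1642 CPM at 0 mpa and 4647 to 6120 CPM at 6 hpa. mmp8.S, a collagenase known from neutrophils, was at 34.6, 9.83 and 20.9 CPM at 0 mpa and at 791, 1130 and 2480 CPM at 6 hpa. Every 6 hpa library was above every 0 mpa library, and 6 hpa C was the highest. The log2 change was 6.07 ± 0.56 (SE, adjusted p = 5.82e-11), and 5.46 without 6 hpa C. mmp8.L, the other copy, went from 0.961, 0 and 0 CPM to 52.6, 126 and 504 CPM, with a log2 change of 9.35 that was 13 without 0 mpa A, 8.75 without 0 mpa C and 8.03 without 6 hpa C.

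mmp1.S, an interstitial collagenase, was at 9.37, 1.01 and 2.59 CPM and then at 719, 821 and 445 CPM. Here 6 hpa C was the lowest of its group, and the groups were far apart (log2 change 7.25 ± 0.59 SE, adjusted p = 1.51e-12; 8.48 without 0 mpa A). Its other copy, mmp1.L, had 2 reads over the 0 mpa libraries and 7 at 6 hpa, a pooled ratio of 4.1 with an exact 95% counting interval of 0.781 to 40.4. The 2 copies of the gelatinase gene mmp9.2 both rose, mmp9.2.L from 4.33, 0 and 3.67 CPM to 315, 204 and 345 CPM, and mmp9.2.S from 0.24, 0 and 0 CPM to 42.9, 44.7 and 44.7 CPM. The 3 values of mmp9.2.S at 6 hpa were nearly equal across libraries of very different depth. Its fitted log2 change of 8.71 was 10.67 without 0 mpa A. mmp19.L rose from 0.24, 1.51 and 0.648 CPM to 35.9, 38.9 and 58.9 CPM (log2 change 5.75 ± 0.74 SE, adjusted p = 1.86e-07; 6.52 without 0 mpa B). mmp13l.L had no read in the 0 mpa libraries and 55 reads at 6 hpa, and was at least 21.5-fold higher, taking 3 counts over the group as the floor.

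The gene timp-1.L encodes a tissue inhibitor of metalloproteinases, but its symbol was not matched to the list and it is not in the counts above. It rose from 3.36, 11.3 and 4.53 CPM to 83.5, 53.1 and 186 CPM. Its log2 change was 4.04 ± 0.55 (SE, adjusted p = 1.14e-06), 4.72 without 0 mpa B and 3.42 without 6 hpa C. The list member that fell was serpinh1.S, which encodes a collagen chaperone. Its level was 188 CPM at 0 mpa and 73.5 CPM at 6 hpa, and with it the lower count of the list was 0 without 0 mpa B and without 6 hpa B. Of 87 structural matrix genes tested, 2 rose and 0 fell, or 2.3% higher beside 3.33% over all genes, with a median log2 change of -0.05. Their summed level was 65350 to 75640 CPM at 0 mpa, 67070 and 63050 CPM in 6 hpa A and B, and 106500 CPM in 6 hpa C. Both were copies of thbs1, for the matricellular protein thrombospondin. thbs1.L rose from 18.5, 20.7 and 30.9 CPM to 90.9, 49.9 and 175 CPM (log2 change 2.14 ± 0.37 SE, adjusted p = 5e-05). The change of thbs1.S, 1.80 ± 0.37 (SE, adjusted p = 0.000702), was 1.06 without 6 hpa C (adjusted p = 0.119).

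**Figure D3:**
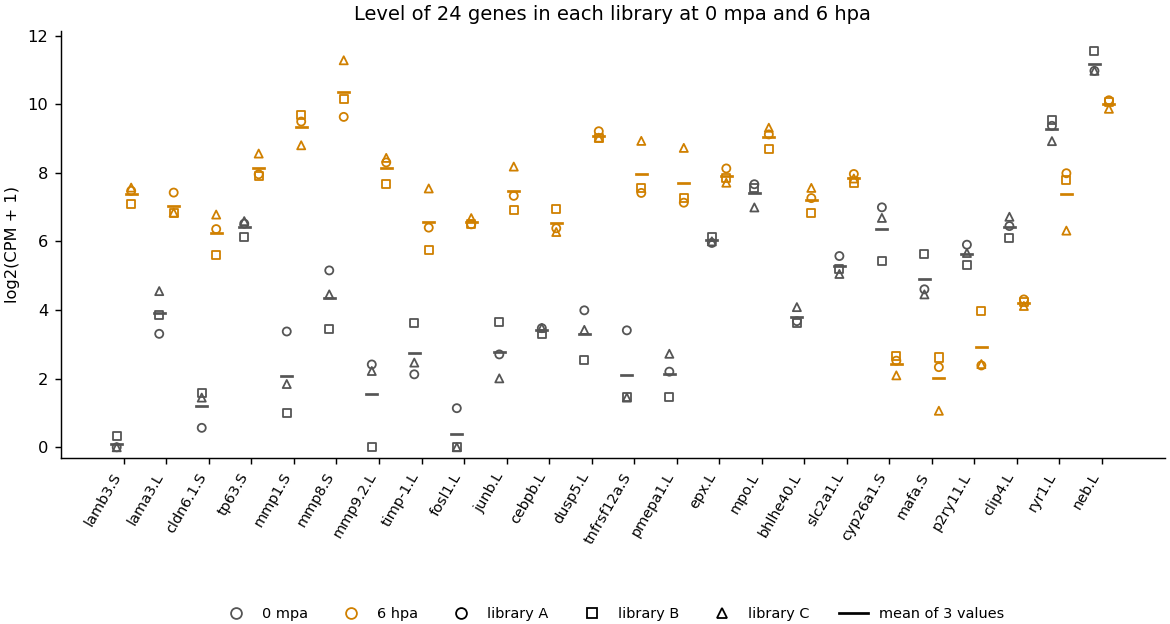
Level of 24 genes in each library, as log2(CPM + 1), at 0 mpa (grey) and 6 hpa (orange), with symbols for libraries A, B and C and a short line at the mean of the 3 values. The first 18 genes rose and the last 6 fell; 6 hpa C (triangles) is the highest 6 hpa library for mmp8.S and tnfrsf12a.S and the lowest for mmp1.S and ryr1.L.

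Immediate early genes and AP-1 subunits formed the list with the largest share of rises. Of 95 tested, 47 rose and 0 fell, or 49.5% higher beside 3.33% over all genes. The median log2 change was 1.71, and 38 of the 47 were called in all 6 leave-one-out fits. Of the 48 not called, 42 had a positive log2 change. The summed level was 1946 to 2458 CPM at 0 mpa, 6079 and 5974 CPM in 6 hpa A and B, and 10260 CPM in 6 hpa C. The largest changes were in Fos-related subunits of AP-1. fosl1.L was at 1.2, 0 and 0 CPM at 0 mpa and at 89.3, 90.6 and 101 CPM at 6 hpa, and fosl1.S went from 0, 1.51 and 0.432 CPM to 61.2, 79.9 and 81.9 CPM. Both copies were near 0 in each 0 mpa library and even across the 6 hpa libraries. Log2 changes were 7.80 ± 0.73 (SE, adjusted p = 2.81e-10; 11.75 without 0 mpa A and 7.19 without 0 mpa C) and 6.81 ± 0.57 (SE, adjusted p = 3.83e-13; 8.19 without 0 mpa B). fosb.S rose from 1.2, 0.252 and 1.51 CPM to 143, 137 and 172 CPM (log2 change 7.18 ± 0.61 SE, adjusted p = 2.1e-12).

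Of the Jun subunits, both copies of junb rose. junb.L went from 5.53, 11.6 and 3.02 CPM to 160, 120 and 289 CPM, and junb.S from 13, 15.4 and 29.6 CPM to 266, 178 and 461 CPM. In both copies 6 hpa C was the highest library, and both groups stood apart. The log2 changes were 4.81 ± 0.44 (SE, adjusted p = 2.7e-12; 5.46 without 0 mpa B) and 3.95 ± 0.40 (SE, adjusted p = 4.83e-11). cebpb.L, a bZIP factor of acute responses, rose from 10.1, 8.82 and 10.1 CPM to 82.5, 122 and 76.4 CPM (log2 change 3.28 ± 0.40 SE, adjusted p = 2.06e-08). runx1.L, a runt-domain transcription factor that is not in the list, rose from 3.6, 0.504 and 2.59 CPM to 70.9, 93.2 and 175 CPM (log2 change 5.60 ± 0.53 SE, adjusted p = 2.2e-11). Its mean level was 7.1 CPM at 30 mpa, 8.47 CPM at 60 mpa, 94.8 CPM at 3 hpa and 173 CPM at 1 dpa.

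Of 55 tested genes for EGF-family ligands and feedback on ERK signalling, 10 rose and 0 fell, or 18.2% higher beside 3.33% over all genes. The median log2 change was 1.1. Without 0 mpa C and without 6 hpa A the count was 6 in each case, and 4 members were called in all 6 fits. dusp5.L, a phosphatase that acts on nuclear ERK, was at 14.9, 4.79 and 9.71 CPM at 0 mpa and at 592, 516 and 519 CPM at 6 hpa. The 3 libraries at 6 hpa differed little, and the log2 change was 5.78 ± 0.48 (SE, adjusted p = 3.83e-13). The other copy, dusp5.S, was at 8.41, 10.6 and 7.34 CPM and then at 30.1, 20.3 and 13.1 CPM, which did not pass the test (adjusted p = 0.057). errfi1.L, an inhibitor of the EGF receptor, rose from 4.33, 8.82 and 9.5 CPM to 45.4, 76.2 and 29.5 CPM (log2 change 2.76 ± 0.43 SE, adjusted p = 5.26e-06). The ligand gene tgfa.L was at 0, 2.27 and 0 CPM and then at 11.8, 13.3 and 7.64 CPM (adjusted p = 0.0301). Its call was lost without 0 mpa A (adjusted p = 0.187), 0 mpa C (0.165), 6 hpa A (0.0667) or 6 hpa B (0.0871), and its log2 change of 3.87 was 8.68 without 0 mpa B and 3.27 without 0 mpa C.

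Inflammatory signalling genes rose, among them receptors and intracellular feedback regulators. Of 85 tested, 17 rose and 0 fell, or 20% higher beside 3.33% over all genes. The median log2 change was 1.21, or 1.11 with genes that lacked reads at a time set to their bound. Of the 17, 13 were called in all 6 leave-one-out fits. tnfrsf12a.S, the receptor for the cytokine TWEAK, was at 9.61, 1.76 and 1.73 CPM at 0 mpa and at 169, 187 and 487 CPM at 6 hpa. tnfrsf12a.L was at 6.25, 6.3 and 6.04 CPM and then at 112, 145 and 329 CPM. Both copies stood well above 0 mpa in each library, with 6 hpa C the highest. The log2 changes were 5.99 ± 0.57 (SE, adjusted p = 2.78e-10; 7.29 without 0 mpa A and 5.35 without 6 hpa C) and 4.95 ± 0.49 (SE, adjusted p = 8.44e-11). socs3.S, a feedback inhibitor of JAK-STAT signalling, rose from 1.92, 8.57 and 3.89 CPM to 55.9, 52.4 and 31.6 CPM (log2 change 3.31 ± 0.46 SE, adjusted p = 5.9e-07; 4.01 without 0 mpa B). nfkb2.L, an NF-kappa-B subunit, went from 2.4, 2.52 and 2.59 CPM to 26.4, 28.2 and 20.7 CPM (log2 change 3.32 ± 0.60 SE, adjusted p = 9.23e-05). The neutrophil chemokine gene cxcl8.S lacked reads in the 0 mpa libraries and reached 6.33, 1.17 and 5.46 CPM at 6 hpa, at least 18-fold higher by pooled reads.

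Genes that mark leukocytes were higher at 6 hpa. Of 53 tested, 7 rose and 0 fell, or 13.2% higher beside 3.33% over all genes. The median log2 change was 1.41, and 42 of the 46 not called had a positive change. Without 0 mpa B the count was 4, and 4 members were called in all 6 leave-one-out fits. The calls of coro1a.S and coro1a.L were lost without 6 hpa C (adjusted p = 0.436 and 0.421) and with RLE scaling (0.0799 and 0.0887), among other settings. That of csf3r.L was lost without 0 mpa A (0.112), 0 mpa B (0.187) or 6 hpa A (0.135). The summed level of the list was 444 to 541 CPM at 0 mpa and 1239 to 1512 CPM at 6 hpa, with no overlap. epx.L, a granulocyte peroxidase, rose from 61.0, 68.8 and 63.0 CPM to 278, 229 and 208 CPM, and mpo.L, myeloperoxidase, from 202, 186 and 126 CPM to 555, 412 and 635 CPM. All 6 hpa libraries were above all 0 mpa libraries for both, and the log2 changes were 1.89 ± 0.36 (SE, adjusted p = 0.00021) and 1.64 ± 0.34 (SE, adjusted p = 0.000998). cxcr4.S, a chemokine receptor, rose from 8.89, 7.82 and 10.1 CPM to 35.3, 31.5 and 46.9 CPM (log2 change 2.06 ± 0.43 SE, adjusted p = 0.00102). The pan-leukocyte gene ptprc.L was at 0.648 to 1.26 CPM at 0 mpa and at 3.03 to 5.46 CPM at 6 hpa, and the myeloid regulator spi1.L at 1.08 to 6.49 CPM and then at 8.97 to 17.5 CPM. Neither passed the test (adjusted p = 0.392 and 0.106). Their levels at the 2 times did not overlap, which also held for 5082 of all 22268 genes tested. ptprc.L had 12 reads over the 0 mpa libraries and 46 at 6 hpa. In tissue sequenced in bulk, a change in the number of cells of a type and a change in RNA per cell cannot be told apart.

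Several secreted factors went from no reads to measurable levels. Of 45 tested hormones and binding proteins, 6 rose and 0 fell, or 13.3% higher beside 3.33% over all genes. The median log2 change was 0.31. stc1.L, the glycoprotein hormone stanniocalcin, had 0 reads in the 0 mpa libraries and was at 18.5, 8.39 and 10.9 CPM at 6 hpa. pthlh.S, parathyroid hormone-like hormone, also had 0 reads at 0 mpa and was at 10.7, 13.7 and 5.46 CPM at 6 hpa. With 3 counts over the 0 mpa libraries as the floor, they were at least 59-fold and 48.8-fold higher. lep.L, leptin, was at 0.721, 0 and 0 CPM and then at 56.1, 62.7 and 33.8 CPM, a pooled ratio of 242 with an exact 95% counting interval of 82.3 to 1180. The fitted log2 change of lep.L, 7.62, was 10.90 without 0 mpa A and 7.03 without 0 mpa C. stc2.L rose from 1.2, 3.53 and 2.16 CPM to 24.1, 27.3 and 25.1 CPM (log2 change 3.46 ± 0.64 SE, adjusted p = 0.000142). Outside this list, tnfrsf6b.S, a soluble decoy for death receptor ligands, had 0 reads at 0 mpa and 71 at 6 hpa (at least 27.7-fold). Its other copy, tnfrsf6b.L, rose from 14.2, 10.6 and 10.4 CPM to 236, 262 and 443 CPM. slc25a18.S, which encodes a mitochondrial glutamate carrier and not a secreted factor, had 0 reads at 0 mpa and 121 at 6 hpa (at least 47.2-fold).

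**Figure D4:**
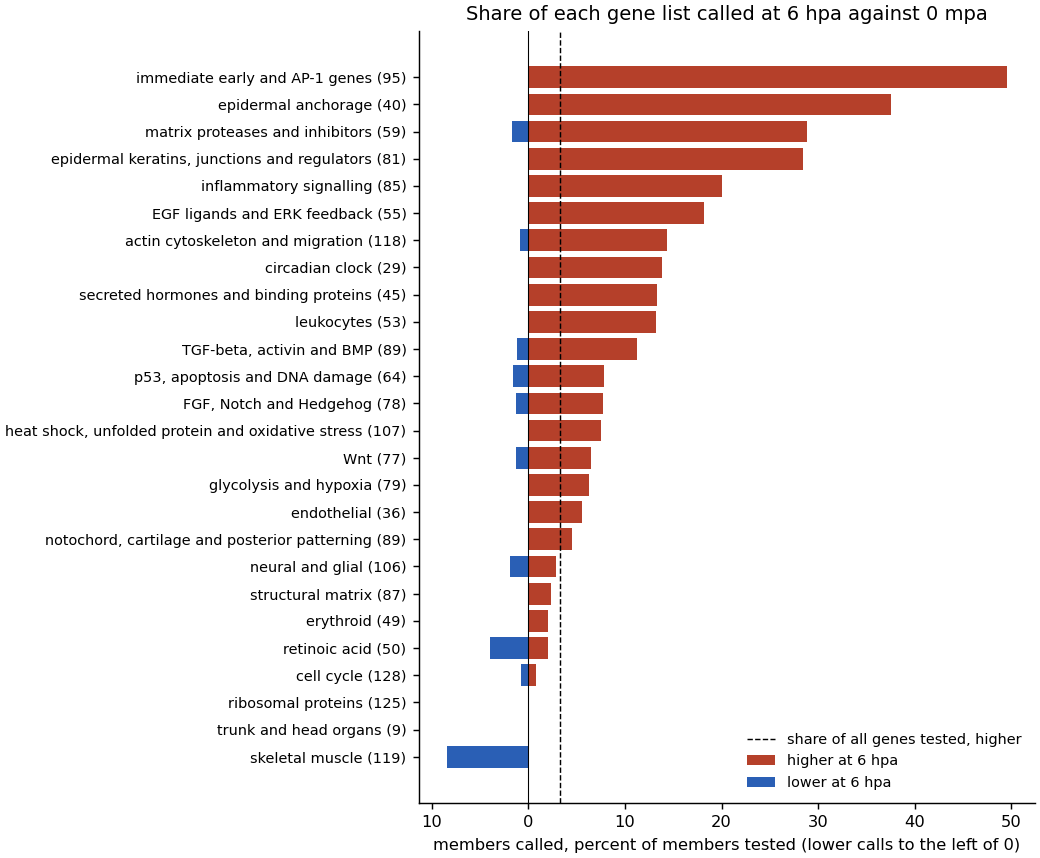
Percent of the tested members of each gene list that were called higher (red, to the right of 0) or lower (blue, to the left of 0) at 6 hpa against 0 mpa, with the number tested in brackets and the 3.33% of all genes called higher as a dashed line. Immediate early and AP-1 genes have the largest share higher, 49.5%, and skeletal muscle genes the largest share lower, 8.4%.

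Genes of developmental signalling pathways rose in part. The share higher was 11.2% for TGF-beta, activin and BMP, 7.69% for FGF, Notch and Hedgehog and 6.49% for Wnt. The share lower was 1.12%, 1.28% and 1.3% in the same order. Over all genes tested, 3.33% were higher and 0.328% lower. Of 89 genes for TGF-beta, activin and BMP signalling, 10 rose and 1 fell, with a median log2 change of 0.04, and 6 rises were called in all 6 leave-one-out fits. Without 0 mpa A alone 6 were called. pmepa1.L, which restrains Smad signalling, was at 3.6, 1.76 and 5.61 CPM at 0 mpa and at 139, 153 and 422 CPM at 6 hpa, and pmepa1.S went from 6.49, 3.28 and 6.91 CPM to 108, 166 and 383 CPM. Both copies were highest in 6 hpa C; their log2 changes of 5.98 ± 0.56 (SE, adjusted p = 1.04e-10) and 5.27 ± 0.50 (SE, adjusted p = 2.55e-11) were 5.29 and 4.61 without it. tgif1.S, a Smad corepressor, rose from 1.44, 2.77 and 11.4 CPM to 75.1, 68.3 and 72.0 CPM (log2 change 3.75 ± 0.47 SE, adjusted p = 4.34e-08; 5.08 without 0 mpa C). The activin subunit inhba.L had a log2 change of 4.15 ± 0.99 (SE, adjusted p = 0.00749; 5.86 without 0 mpa B), and its call was lost without 0 mpa A (adjusted p = 0.0653) or 0 mpa C (0.0687). The gene that fell was smad6.S, an inhibitory Smad, from 35.6, 31.5 and 40.6 CPM to 9.32, 12.6 and 10.9 CPM (log2 change -1.71 ± 0.44 SE, adjusted p = 0.0112). The groups were apart, and the call was lost without 0 mpa C (adjusted p = 0.0542) or 6 hpa A (0.0865).

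The retinoic acid list held some of the largest falls, those of the 2 copies of cyp26a1. Retinoic acid signalling itself was not measured. Of 50 genes tested, 1 rose and 2 fell, and the median log2 change was -0.48. These are shares of 2% and 4%, beside 3.33% and 0.328% over all genes. cyp26a1.S, the enzyme that degrades retinoic acid, was at 126, 41.8 and 102 CPM at 0 mpa and at 4.75, 5.36 and 3.27 CPM at 6 hpa. cyp26a1.L was at 23.6, 9.83 and 20.1 CPM and then at 1.23, 0 and 0 CPM. Every 6 hpa library lay below every 0 mpa library in both copies. The log2 changes were -4.24 ± 0.52 (SE, adjusted p = 2.02e-08) and -4.84 ± 0.83 (SE, adjusted p = 4.08e-05), the latter -9.34 without 6 hpa A and -4.17 without 6 hpa B. rara.S, a retinoic acid receptor, rose from 28.4, 30.5 and 17.7 CPM to 78.1, 110 and 128 CPM (log2 change 2.04 ± 0.40 SE, adjusted p = 0.0004), while its copy rara.L was at 13.7 to 38.6 CPM and then at 29.2 to 37.1 CPM.

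Of 77 Wnt pathway genes, 5 rose and 1 fell, with a median log2 change of 0.20, or 0.14 with genes lacking reads at a time set to their bound. Without 0 mpa A, 0 mpa B or 6 hpa C, 3 rises were called in each case. lef1.L, a nuclear effector of the pathway, rose from 115, 77.4 and 117 CPM to 238, 348 and 755 CPM, and ctnnb1.L, beta-catenin, from 66.8, 102 and 71.7 CPM to 270, 206 and 459 CPM. Each had its highest value in 6 hpa C and no overlap between the times. Log2 changes were 2.11 ± 0.38 (SE, adjusted p = 9.45e-05; 1.51 without 6 hpa C) and 1.95 ± 0.34 (SE, adjusted p = 5e-05). The summed level of the Wnt list was 1203 to 1290 CPM at 0 mpa, 1747 and 1776 CPM in 6 hpa A and B, and 3322 CPM in 6 hpa C. The receptor gene fzd7.S, at 6.97, 12.9 and 7.77 CPM and then at 1.93, 1.4 and 1.09 CPM, had an adjusted p of 0.0469 that was above the threshold without any 1 of the 6 libraries (0.0706 to 0.218 over those fits) and with a replicate block (0.0579).

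Of 78 FGF, Notch and Hedgehog genes, 6 rose and 1 fell, with a median log2 change of 0.08. Their summed level was 1754 to 1997 CPM at 0 mpa, 1714 and 1945 CPM in 6 hpa A and B, and 2913 CPM in 6 hpa C, which stood apart. When 0 mpa A or 0 mpa C was omitted 3 rises were called, and when 0 mpa B or 6 hpa C was omitted 1 was. The rise called in all 6 of these fits was that of notch2.L, a Notch receptor, which went from 8.41, 3.78 and 10.4 CPM to 32.2, 28.4 and 87.3 CPM (log2 change 2.65 ± 0.52 SE, adjusted p = 0.000457; 2.00 without 6 hpa C). Its other copy, notch2.S, was at 26.1 to 42.8 CPM and then at 27 to 45.8 CPM. fgfr4.L, an FGF receptor, was at 23.8, 17.1 and 13.6 CPM and then at 4.04, 3.96 and 4.37 CPM (log2 change -2.15 ± 0.61 SE, adjusted p = 0.0286). Its call was lost without 0 mpa A (adjusted p = 0.159), 0 mpa B (0.0758), 6 hpa A (0.116), 6 hpa B (0.129) or 6 hpa C (0.0819).

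Genes of the actin cytoskeleton and of cell migration rose in part. Of 118 tested, 17 rose and 1 fell, with a median log2 change of 0.28. These are shares of 14.4% and 0.847%, beside 3.33% and 0.328% over all genes. Library 6 hpa C stood apart in the summed level of the list, at 66350 CPM, against 44500 and 44280 CPM in 6 hpa A and B and 32460 to 37010 CPM at 0 mpa. The count of rises was 9, 8 and 11 without 0 mpa A, B and C, and 10 without 6 hpa C. That of falls was 0 without 0 mpa A, 0 mpa B or 6 hpa C and 2 without 0 mpa C or 6 hpa A, and 6 members were called in all 6 leave-one-out fits. zyx.S, the focal adhesion protein zyxin, rose from 36.3, 44.4 and 59.6 CPM to 255, 293 and 550 CPM (log2 change 2.96 ± 0.38 SE, adjusted p = 5.47e-08). lima1.L, an actin-bundling protein, rose from 64.2, 40.8 and 58.3 CPM to 258, 220 and 204 CPM. The times did not overlap for either gene. For lima1.L the log2 change was 2.06 ± 0.36 (SE, adjusted p = 5.1e-05).

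Of 79 genes for glycolysis and hypoxia, 5 rose and 0 fell, with a median log2 change of -0.13. The share higher was 6.33%, beside 3.33% over all genes, and 4 of the 5 were called in all 6 leave-one-out fits. slc2a1.L, the glucose transporter GLUT1, went from 46.6, 35.8 and 32.2 CPM to 249, 209 and 227 CPM, and slc2a1.S from 32.9, 23.7 and 41.2 CPM to 78.3, 91.3 and 139 CPM. Both copies rose, by log2 changes of 2.58 ± 0.37 (SE, adjusted p = 1.08e-06) and 1.64 ± 0.35 (SE, adjusted p = 0.00116). slc2a6.L, a glucose transporter of the same family, had 0 reads at 0 mpa and was at 6.33, 9.32 and 13.1 CPM at 6 hpa, at least 34.4-fold higher. pfkfb3.S, a regulator of glycolytic flux, rose from 3.85, 3.53 and 3.89 CPM to 29.7, 35.2 and 10.9 CPM (log2 change 2.81 ± 0.58 SE, adjusted p = 0.00134). ndrg1.L, a gene known to respond to hypoxia, overlapped between the times, at 10.1, 40.3 and 24 CPM and then at 38.3, 94.4 and 139 CPM (log2 change 1.84 ± 0.54 SE, adjusted p = 0.0466). Its call was lost without 0 mpa A (adjusted p = 0.245), 0 mpa C (0.155), 6 hpa B (0.122) or 6 hpa C (0.281), and with RLE scaling (0.112). Of the 74 members without a call, 45 had a negative log2 change. The summed level of the list was lower, at 19370 to 23180 CPM at 0 mpa and 14470 to 17830 CPM at 6 hpa, without overlap.

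Of 29 circadian clock genes, 4 rose and 0 fell, or 13.8% higher beside 3.33% over all genes. These 4 were called in all 15 alternative settings. bhlhe40.L, a transcriptional repressor of the clock, went from 11.8, 11.3 and 16.0 CPM to 152, 112 and 188 CPM, and bhlhe40.S from 13, 3.53 and 14 CPM to 88.5, 48.2 and 148 CPM. arntl.L, the activator BMAL1, went from 17.3, 11.3 and 13.8 CPM to 85.3, 134 and 65.5 CPM. per1.L, a repressor that is also in the immediate early list, had a log2 change of 2.10 ± 0.40 (SE, adjusted p = 0.000235). The log2 changes of bhlhe40.L and arntl.L were 3.52 ± 0.37 (SE, adjusted p = 1.72e-10) and 2.76 ± 0.38 (SE, adjusted p = 3.43e-07). Every library came from amputated tails, so a change with the time of day was not tested.

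Of 64 genes of p53, apoptosis and DNA damage, 5 rose and 1 fell. These are shares of 7.81% and 1.56%, beside 3.33% and 0.328% over all genes. The fall was lost when 0 mpa B, 6 hpa B or 6 hpa C was omitted. gadd45g.L, a growth arrest gene, rose from 0.721, 1.26 and 1.94 CPM to 43.3, 24.7 and 44.7 CPM (log2 change 4.79 ± 0.71 SE, adjusted p = 4.68e-06). btg2.S, an antiproliferative gene that is also in the immediate early list, rose from 13.5, 12.1 and 11.4 CPM to 114, 68.7 and 78.6 CPM (log2 change 2.82 ± 0.37 SE, adjusted p = 9.18e-08). Each 6 hpa library was above each 0 mpa library for both. Of 107 genes for heat shock, unfolded protein and oxidative stress, 8 rose and 0 fell, or 7.48% higher beside 3.33% over all genes. The median log2 change was 0.17. The count was 3 without 0 mpa A and 4 without 0 mpa C. sqstm1.L, an autophagy receptor, rose from 56.0, 61.5 and 99.5 CPM to 271, 323 and 395 CPM (log2 change 2.18 ± 0.38 SE, adjusted p = 4.59e-05). The heme oxygenase copy hmox1.S had a log2 change of 3.33 ± 0.80 (SE, adjusted p = 0.00603), and its call was lost without 0 mpa A (adjusted p = 0.0782) or 6 hpa A (0.0576).

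Cell cycle genes were not higher at 6 hpa. Of 128 tested, 1 rose and 1 fell, each 0.781%, beside 3.33% higher and 0.328% lower over all genes. Of the others, 101 had a negative log2 change, with a list median of -0.51. The summed level of the list was 2362 to 2854 CPM at 0 mpa and 1874 to 2045 CPM at 6 hpa, without overlap. With RLE scaling 4 fell, and when 0 mpa A, 0 mpa B, 6 hpa B or 6 hpa C was omitted 0 rose and 0 fell. espl1.L, the separase that cuts cohesin, was at 29.6, 19.7 and 15.1 CPM and then at 9.32, 5.59 and 1.09 CPM (log2 change -1.82 ± 0.54 SE, adjusted p = 0.0429). Its call was lost without 0 mpa A (adjusted p = 0.249), 0 mpa B (0.0951), 6 hpa B (0.163) or 6 hpa C (0.238). The mitotic phosphatase gene cdc25b.S went the other way, from 57.9, 43.9 and 60.0 CPM to 92.7, 177 and 176 CPM (log2 change 1.45 ± 0.38 SE, adjusted p = 0.0153). That call was lost without 0 mpa A (adjusted p = 0.0655), 0 mpa B (0.132), 6 hpa B (0.0917) or 6 hpa C (0.0647).

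Ribosomal protein genes showed no call in either direction among 125 tested, with a median log2 change of -0.08 and summed levels of 59610 to 70030 CPM and 52940 to 73380 CPM. The member with the smallest p was rpl28.S (log2 change 1.09 ± 0.47 SE, unadjusted p = 0.0257, adjusted p = 0.263). Of 106 neural and glial genes, 3 rose and 2 fell, with 1 fall when any library but 0 mpa B was omitted. These are shares of 2.83% and 1.89%, beside 3.33% and 0.328% over all genes. The median log2 change of the list was -0.26, and 66 of the 101 members without a call had a negative change. sox11.S, a transcription factor of neural progenitors that is also made elsewhere, rose from 2.4, 6.3 and 10.4 CPM to 45.7, 63.2 and 99.3 CPM, and sox11.L from 11.3, 9.08 and 27.2 CPM to 77.2, 81.3 and 211 CPM. Both copies were apart between the times, with log2 changes of 3.41 ± 0.46 (SE, adjusted p = 2.37e-07) and 2.92 ± 0.43 (SE, adjusted p = 1.47e-06; 3.56 without 0 mpa C and 2.31 without 6 hpa C). bcl11b.L, a zinc finger factor, fell from 27.9, 13.6 and 19.2 CPM to 3.69, 2.8 and 0 CPM (log2 change -2.88 ± 0.60 SE, adjusted p = 0.00103).

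Of 89 genes for notochord, cartilage and posterior patterning, 4 rose and 0 fell, a share of 4.49% beside 3.33% over all genes. The count was 2 without 0 mpa A and without 6 hpa C, and 7 without 6 hpa A. krt18.1.S, a simple epithelial keratin that is also in the epidermal list, was the rise called in all 6 leave-one-out fits (log2 change 2.56 ± 0.42 SE, adjusted p = 1.5e-05). Of 36 endothelial genes 2 rose and 0 fell, and of 49 erythroid genes 1 rose and 0 fell. The shares higher were 5.56% and 2.04%, beside 3.33% over all genes. Of the 34 endothelial genes without a call, 26 had a negative log2 change. The endothelial genes summed to 462 to 506 CPM at 0 mpa and 347 to 378 CPM at 6 hpa, without overlap. The median log2 change was -0.35 in the endothelial list and 0.02 in the erythroid list. Without 0 mpa A there were 0 rises in either list, without 0 mpa C again 0 in either, without 0 mpa B or 6 hpa B 0 in the endothelial list, and without 6 hpa C 1 in the endothelial list. As a check of the labelled tissue, 32 of 41 markers of trunk and head organs were too low to be tested. The other 9 summed to 53.5 to 68.4 CPM at 0 mpa and 89.7 to 171 CPM at 6 hpa, with 0 calls (smallest adjusted p 0.258, for apoc1.L), whereas muscle genes summed to 111800 CPM or more in every library.

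Skeletal muscle genes were lower at 6 hpa, but with a wide spread at 0 mpa. Of 119 tested, 0 rose and 10 fell, or 8.4% lower beside 0.328% over all genes. Of the other 109 members, 98 had a negative change, and the list median log2 change was -0.84 against -0.02 over all genes. The summed level of the list was 162000, 271400 and 183500 CPM in 0 mpa A, B and C and 126000, 111800 and 165800 CPM in 6 hpa A, B and C. The highest 6 hpa library, C, thus lay above the lowest 0 mpa library, A. Omitting 0 mpa A or 6 hpa A left 4 falls, omitting 0 mpa B left 2, and omitting 6 hpa B or 6 hpa C left 1. Calls were also lost without 0 mpa C, those of neb.L and myf6.S below among them. No gene was called in all 6 leave-one-out fits. The count of falls was 19 with RLE scaling and 25 with DESeq2.

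ryr1.L, the calcium release channel of muscle, was at 660, 744 and 484 CPM at 0 mpa and at 253, 222 and 78.6 CPM at 6 hpa. neb.L, the thin filament protein nebulin, was at 2010, 2990 and 2010 CPM and then at 1110, 1080 and 932 CPM. Both were lower in every 6 hpa library than in any 0 mpa library. The log2 change of ryr1.L was -1.75 ± 0.40 (SE, adjusted p = 0.00302), and its call was lost without 6 hpa C (adjusted p = 0.0569). For neb.L the change was -1.17 ± 0.35 (SE, adjusted p = 0.0408), with the call lost without any 1 of the 6 libraries (adjusted p 0.0663 to 0.284). tpm1.L, tropomyosin, was at 3000, 4790 and 2560 CPM and then at 2150, 1290 and 833 CPM. It had an adjusted p of 0.0395, and its call was lost when 0 mpa A (adjusted p = 0.0787), 0 mpa B (0.332), 6 hpa B (0.159) or 6 hpa C (0.305) was omitted. myf6.S, a myogenic transcription factor, was at 47.8, 37.8 and 48.8 CPM and then at 17.9, 15.4 and 9.82 CPM (log2 change -1.59 ± 0.48 SE, adjusted p = 0.0466). Its call, too, was lost without any 1 of the 6 libraries (adjusted p 0.0839 to 0.209).

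Among the other falls, mafa.S, a large Maf transcription factor, went from 23.3, 48.7 and 20.9 CPM to 4.04, 5.13 and 1.09 CPM (log2 change -2.98 ± 0.63 SE, adjusted p = 0.00145). p2ry11.L, a nucleotide receptor, fell from 58.9, 38.6 and 49.6 CPM to 4.22, 14.7 and 4.37 CPM, and clip4.L, a microtubule-binding protein, from 86.3, 67.8 and 104 CPM to 18.8, 17.7 and 16.4 CPM. In clip4.L the libraries of each time were close together. The log2 changes were -2.57 ± 0.48 (SE, adjusted p = 0.000162; -3.51 without 6 hpa B) and -2.27 ± 0.37 (SE, adjusted p = 1.71e-05). The calls of these 3 genes held in all 15 alternative settings. nav3.S, a microtubule-associated navigator protein, was at 29.8, 24.7 and 27.8 CPM and then at 7.39, 4.19 and 2.18 CPM (log2 change -2.44 ± 0.61 SE, adjusted p = 0.00795). Its call was lost without 6 hpa B (adjusted p = 0.0649) or 6 hpa C (0.0571). foxd2.S, a forkhead factor, was at 36.8, 35.5 and 34.8 CPM and then at 7.03, 11.9 and 6.55 CPM (log2 change -2.03 ± 0.50 SE, adjusted p = 0.00701), with the call lost without 6 hpa A (adjusted p = 0.0656). ackr3.L, a scavenging chemokine receptor, was at 22.6, 18.7 and 11.2 CPM and then at 3.87, 2.1 and 2.18 CPM (adjusted p = 0.044). It was not called without 0 mpa A, 0 mpa B or any 1 of the 6 hpa libraries (adjusted p 0.0851 to 0.199).

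The .L and .S copies of a gene were set side by side where both were tested, which held for 5791 pairs. Both copies rose in 99 pairs, the .L copy alone was called in 170 and the .S copy alone in 115. Of the partners without a call, 251 had a positive log2 change. Both copies fell in 2 pairs, the .L copy alone in 28 and the .S copy alone in 15. In 0 pairs were the copies called in opposite directions. Among all tested genes, 3.56% of 10152 .L copies and 3.24% of 7474 .S copies rose. Near-identical copies can share reads, and the sources used here do not say how the counting treated such reads.

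To place 6 hpa in the series, it was set against the times before and after. Against 3 hpa, 15 genes were higher at 6 hpa and 35 lower, or 0.0674% and 0.157% of genes tested, and against 1 dpa 49 were higher and 25 lower, or 0.22% and 0.112%. Both comparisons share the 6 hpa libraries with the main one. Of the 95 immediate early and AP-1 genes, 18 were lower and 2 higher at 6 hpa than at 3 hpa, and 9 were higher and 0 lower than at 1 dpa. The 18 became 10, 7 and 9 when 6 hpa A, 6 hpa B or 3 hpa B, in that order, was omitted, and the 2 became 1 when 6 hpa C was. The 9 became 5 when 1 dpa C was omitted, and 1 with the libraries of 6 hpa and 1 dpa fitted alone. ptgs2.L, the inducible prostaglandin synthase, was at 21.9 ± 3.9 CPM (SD, n = 3) at 0 mpa, 655 ± 68 CPM at 3 hpa and 117 ± 39.3 CPM at 6 hpa. It was still above 0 mpa (log2 change 2.41 ± 0.42 SE, adjusted p = 5e-05) and below 3 hpa (-2.48 ± 0.41 SE, adjusted p = 0.000325). fosl2.S, an AP-1 subunit, was at 4.19 ± 0.747, 155 ± 27.9 and 26.4 ± 8.32 CPM at these times, and nr4a2.L, an orphan nuclear receptor, at 1.46 ± 1.21, 146 ± 27.7 and 24.4 ± 9.3 CPM. Both fell from 3 to 6 hpa in all leave-one-out fits, by 2.54 ± 0.38 (SE, adjusted p = 7.1e-05) and by 2.65 ± 0.44 (SE, adjusted p = 0.000325) on the log2 scale. ereg.L, an EGF-family ligand, was at 98.1, 135 and 88.0 CPM at 3 hpa and at 13.2, 13.5 and 10.9 CPM at 6 hpa, where it overlapped its 0 mpa values of 12.5, 4.03 and 8.42 CPM. Its log2 change from 3 to 6 hpa was -3.06 ± 0.51 (SE, adjusted p = 0.000472).

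The genes that were higher at 6 hpa than at 3 hpa included several developmental transcription factors. bhlha9.S, a basic helix-loop-helix factor, was at 10.4, 11.6 and 7.04 CPM at 3 hpa and at 75.4, 95.3 and 139 CPM at 6 hpa (log2 change 3.40 ± 0.43 SE, adjusted p = 1.46e-06), after 44, 27 and 63.9 CPM at 0 mpa. znf703.L, a transcriptional corepressor, was at 149, 134 and 151 CPM and then at 576, 1040 and 1720 CPM (log2 change 2.94 ± 0.41 SE, adjusted p = 1.29e-05), after 413, 437 and 552 CPM. snai2.L, a regulator of epithelial-mesenchymal transition, was at 3.84, 11.2 and 5.47 CPM and then at 36.6, 32.9 and 77.5 CPM (log2 change 2.79 ± 0.44 SE, adjusted p = 0.000209), after 52.6, 21.7 and 41.4 CPM. In all 3 the 3 hpa level was the lowest of the 3 times. Only for snai2.L did the 6 hpa values overlap those at 0 mpa. Against 0 mpa the adjusted p was 0.077 for bhlha9.S, 0.051 for znf703.L and 0.846 for snai2.L. Of the 15 alternative settings, 1 called bhlha9.S higher (adjusted p = 0.0209) and 5 called znf703.L higher (0.00422 to 0.0399). The other copies bhlha9.L and znf703.S were called higher than at 0 mpa (adjusted p = 0.0267 and 0.0157). Their calls were lost in 5 and 4 of the 15 settings. The copy snai2.S was not called (adjusted p = 0.98).

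Against 1 dpa, fosb.S was at 143, 137 and 172 CPM at 6 hpa and at 16.0, 16.2 and 3.87 CPM at 1 dpa (log2 change 3.66 ± 0.48 SE, adjusted p = 1.24e-05), and tns4.S, a focal adhesion protein, at 52.2, 65.0 and 77.5 CPM and at 11, 4.89 and 7.73 CPM (log2 change 3.01 ± 0.42 SE, adjusted p = 1.28e-05). mmp11.L, the metalloproteinase stromelysin-3, moved through 6 hpa in the other direction. It was at 1.00 ± 0.515 CPM (SD, n = 3) at 0 mpa, 27.2 ± 7.7 CPM at 6 hpa and 166 ± 22 CPM at 1 dpa, with log2 changes of 4.67 ± 0.57 (SE, adjusted p = 1.3e-08) from 0 mpa and -2.65 ± 0.44 (SE, adjusted p = 0.000295) against 1 dpa. hes2.L, a Hes-family repressor, was at 1.93, 1.4 and 1.09 CPM at 6 hpa and at 96.5, 188 and 66.8 CPM at 1 dpa (log2 change -6.16 ± 0.77 SE, adjusted p = 1.28e-05), and overlapped its 0 mpa values of 0, 3.78 and 0.216 CPM. The calls of fosb.S, tns4.S, mmp11.L and hes2.L against 1 dpa held in each leave-one-out fit. With the 6 libraries of 6 hpa and 1 dpa fitted alone, 5 genes in all were called in place of 74.

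**Figure D5:**
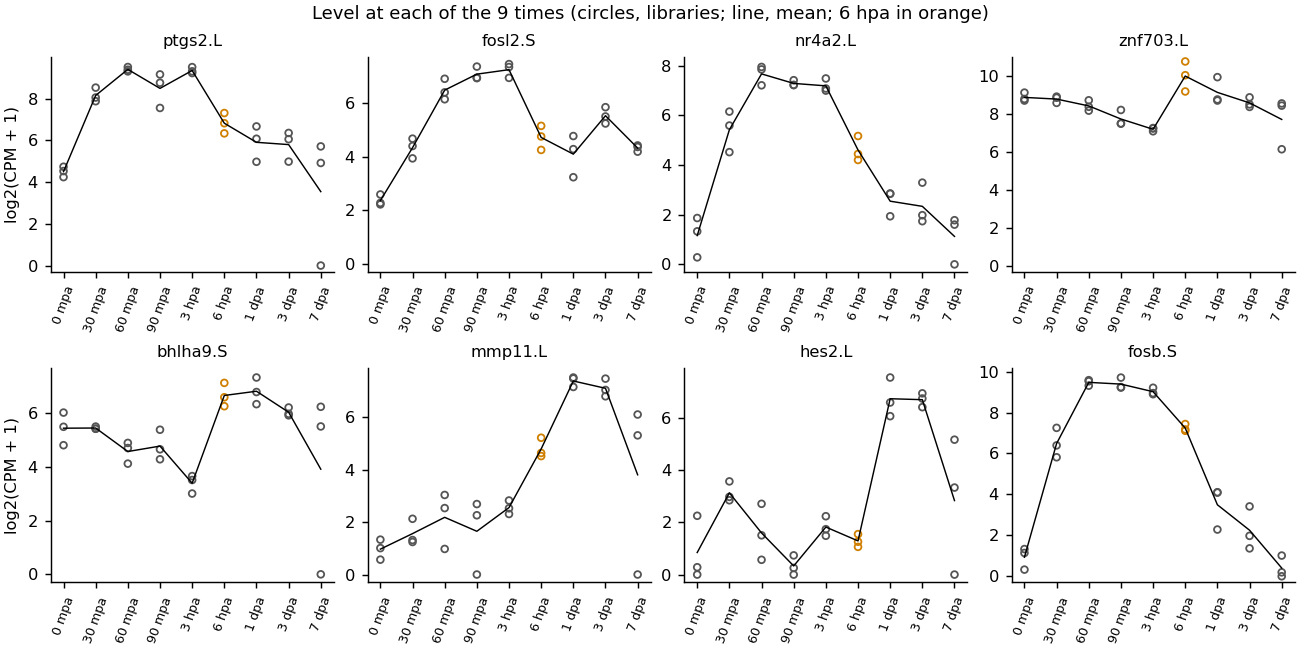
Level of 8 genes, as log2(CPM + 1), at each of the 9 times, with a circle per library, the line at the mean and 6 hpa in orange. ptgs2.L, fosl2.S, nr4a2.L and fosb.S are lower at 6 hpa than at 3 hpa in each library, znf703.L and bhlha9.S are higher than at 3 hpa, and mmp11.L and hes2.L are below their 1 dpa level; the library at or near 0 for several genes at 7 dpa has 19187 reads in all.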

How the data were processed

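RNA from amputated tails was sequenced in 27 libraries, 3 at each of 9 times. Per the labels, 100 ng of total RNA went into Lexogen SENSE libraries read as pairs of 76 bases on a NextSeq 500. The authors deposited whole-number counts per gene. Tools listed in the submitters' processing notes, without roles, are R 4.1.0, DESeq2 1.32.0, HTSeq 0.6.1p1 and STAR 2.7.9a. Strand setting, annotation and build: not given in the sources used here. A gene may therefore share reads with an overlapping or antisense gene. A deposited table of normalized values was not used. Of 29776 symbols, 29771 matched RefSeq.

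Counts were tested with edgeR 4.0.16 (R 4.3.3): genes passing filterByExpr by time, TMM scaling, robust quasi-likelihood fits over all 27 libraries with a prior count of 0.125, and Benjamini-Hochberg adjustment over 22268 genes at 0.05. The SE is the log2 change divided by the square root of F. CPM are counts per 1000000 reads after TMM scaling. Libraries at 0 mpa held 4356539, 4739923 and 5114908 counts and those at 6 hpa 6019871, 4479125 and 1207557. The script was tested on simulated data.

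The comparison and the gene lists were chosen with earlier results of these data known. Genes were named by rule: the 12 largest rises and 10 largest falls without overlap, at 5 CPM or more and with a symbol that is not a serial number; up to 4 called members per list, or the one with the smallest p where none was called; and the 6 largest changes each way against 3 hpa and 1 dpa. The other copy of a named gene could be given. Some genes that the rule names are not reported here. Named outside it after their values were seen were junb.L, junb.S, cebpb.L, runx1.L, mmp19.L, timp-1.L, serpinh1.S, itgb4.L, cgn.L, tp63.S, muc1.S, nfkb2.L, cxcl8.S, mpo.L, ptprc.L, spi1.L, smad6.S, foxd2.S, tpm1.L, neb.L, ctnnb1.L and ptgs2.L. Letters A to C were not used to pair samples in the main fit. Deviations of same-letter libraries at 6 hpa and 0 mpa correlated at 0.0212, -0.00141 and 0.076. Those of different letters correlated at -0.0824 to 0.0519. With 3 libraries per time, these values cannot show whether libraries of the same letter share a clutch.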

Additional observations from a re-analysis of the deposited data

How the results depend on the processing

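With RLE scaling, 151 genes were lower, with no filter on low counts 123, with DESeq2 241, with the 6 libraries alone 162 and with these thinned to the depth of 6 hpa C 183, each beside 73. Without 90 mpa C and 7 dpa C, 2 very shallow libraries, 1359 genes changed in place of 814, and 253 were lower. Chosen after seeing the data, leaving out 5 shallow or low-complexity libraries gave 1607 changed, 1258 higher and 349 lower. The 5 were library B of 1 and of 3 dpa, and library C of 90 mpa, of 6 hpa and of 7 dpa. Also chosen after seeing the data, the 5 libraries of 6 hpa and 0 mpa without 6 hpa C gave 895 higher and 248 lower. That was 1143 changed, beside 948 with 6 hpa C kept. Leaving out 1 library at a time from the fit over the series gave 470 to 732 changed, 440 to 668 higher and 27 to 64 lower. The replicate block gave 810 changed genes, of which 787 were called without it. Against 3 hpa (50 genes), the counts were 79 with no filter, 88 without 90 mpa C and 7 dpa C, 89 with the libraries of both times alone, 81 thinned, 122 without the 5 libraries, 81 with DESeq2 and 18 to 35 leaving out 1 library. Against 1 dpa (74 genes), they were 149, 315, 5, 13, 244, 209 and 32 to 62 in the same order. Over the 15 alternatives, 224 single genes gave 3282 values of 6 hpa against 0 mpa. There were 0 changes of sign among called values, 250 lost calls and 28 gained calls. Many of these genes were chosen for a large called change in the main fit, so these counts say little about other genes. Of all 814 calls, the share also called under an alternative was lowest without 0 mpa B, at 54.9%. It was 59% without 0 mpa A and highest without 90 mpa C and 7 dpa C, at 99.5%.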
